A study of Mus with 10 samples.

Results

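ILC1s belong, with natural killer (NK) cells, to the first group of innate lymphoid cells, whereas ILC2s and ILC3s are innate lymphoid cells that make type 2 cytokines and IL-22 or IL-17, respectively. The 9 genes described here are *Kit* and 8 genes known from ILC2s or ILC3s: the transcription factor genes *Rora* and *Ahr*, the cytokine receptor genes *Il23r* and *Il17rb*, and the genes for the secreted factors IL-22, IL-13, IL-5 and amphiregulin (*Il22*, *Il13*, *Il5* and *Areg*). They were chosen by gene symbol, with earlier results of these data known. All 9 were found among the 24564 genes of the count table. RNA sequencing compared ILC1s freshly sorted from the livers of NKp46-deficient mice, *Ncr1* gfp/gfp, with those of *Ncr1* +/+ mice, with 5 libraries per genotype. In *Ncr1* gfp/gfp mice, gfp stands in place of *Ncr1*, the gene for the activating receptor NKp46. Both genotypes were C57BL/6, 6 to 8 weeks old and given no treatment. *Ncr1* +/+ ILC1s were sorted as lineage-negative NK1.1+ CD49b- CD49a+ cells that bound an anti-NKp46 antibody, whereas *Ncr1* gfp/gfp ILC1s were sorted with GFP in place of NKp46, so genotype and this step of the gate cannot be told apart. None of the 9 genes encodes a protein used in the gate. A figure legend of the study speaks of RNA pools without giving the number of mice per library, so p-values measure the spread between libraries and n counts libraries, not mice.

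KIT is the receptor tyrosine kinase for stem cell factor and marks haematopoietic progenitors, mast cells and, among innate lymphoid cells, precursors and many ILC3s. RORα, encoded by *Rora*, is a nuclear receptor needed for ILC2 development, and AHR, encoded by *Ahr*, is a ligand-activated transcription factor on which ILC3s in the gut depend. IL-23 drives ILC3s to make IL-22 and IL-17, and IL-25 acts through IL-17RB to drive ILC2s to make IL-5 and IL-13. Liver ILC1s are instead known by the transcription factor T-bet and by making IFN-γ.

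The total count was 15796253 to 21975879 in *Ncr1* gfp/gfp and 17996935 to 22623133 in *Ncr1* +/+ libraries. Expression is given as CPM, the counts of a gene per 1000000 counts of the library, after TMM normalization, which adjusts the library totals for differences in RNA composition. *Ncr1* itself was at 141 to 356 CPM in the *Ncr1* gfp/gfp and at 1913 to 2144 CPM in the *Ncr1* +/+ libraries. *Tbx21*, which encodes T-bet, was at 387 to 491 CPM over all 10 libraries, while *Eomes*, the related factor of NK cells, was at 5.06 to 17.7 CPM. Y-linked *Ddx3y* was at 133 to 171 CPM and *Xist* at no more than 1.09 CPM in every library, although mice of either sex are named in the methods. Hepatocyte marker genes (summed without *Trf*) stood apart in *Ncr1* gfp/gfp replicate 3, at 96.5 CPM, and *Ncr1* +/+ replicate 1, at 49.3 CPM, and the other libraries had at most 8.57 CPM. *Kit*, *Rora*, *Ahr* and the genes that passed the test in the lists below are also given without these 2 libraries, a check chosen after the data were seen.

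*Kit*, *Rora* and *Ahr* were expressed in every library, and the other 6 genes were at or near 0 counts in both genotypes. *Kit* fell to 59.1% of its *Ncr1* +/+ mean in *Ncr1* gfp/gfp ILC1s, and *Ahr* fell to 80.5%. The mean of *Rora* was 72.2% of that in *Ncr1* +/+ ILC1s, but its difference did not pass the test across all genes. *Kit*, *Rora* and *Ahr* were the only ones of the 9 to pass the filter on low counts, which left 11463 genes for the edgeR quasi-likelihood test. Of these 3, 2 had an adjusted p under 0.05 and both were lower in *Ncr1* gfp/gfp, against a background of 0.785% of all genes tested that were lower at this threshold and 1.35% that differed in either direction. As the genes were chosen with earlier results of these data known, this comparison with the background is a description. With a fold change below 0.7 added, which 0.532% of all genes tested met (0.733% with a fold above 1.5 counted too), *Kit* was called and *Ahr* was not. The median log2 fold change of all genes tested was 0.0027.

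*Kit* was the least abundant of the 3 expressed genes (chromosome 5, 75971012 to 76052746, plus strand, as the count table lists it without naming a genome build). Its CPM in *Ncr1* +/+ replicates 1 to 5 was 33.1, 21.8, 30.0, 41.6 and 33.4. In *Ncr1* gfp/gfp replicates 1 to 5 it was 28.9, 14.5, 18.2, 18.0 and 15.0. Of the *Ncr1* gfp/gfp libraries, 4 lay below every *Ncr1* +/+ library, and replicate 1 lay above *Ncr1* +/+ replicate 2, so the genotypes overlapped. These values rest on 1670 counts over the *Ncr1* gfp/gfp and 3125 counts over the *Ncr1* +/+ libraries. *Ncr1* +/+ ILC1s averaged 32.0 ± 7.13 CPM (SD, n = 5) and *Ncr1* gfp/gfp ILC1s 18.9 ± 5.83 CPM (SD, n = 5). On the log2 scale the fold change was -0.76 ± 0.18 (standard error), with adjusted p = 0.0290 by edgeR's quasi-likelihood test, and a two-sided exact permutation test of CPM gave p = 0.0159, where 0.00794 is the smallest p that 5 against 5 libraries allow.

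The direction of the *Kit* difference held with any 1 library left out, with a log2 fold change between -0.96 and -0.65, but the adjusted p did not stay under 0.05. It was 0.0022 without *Ncr1* gfp/gfp replicate 1 and 0.0100 without *Ncr1* +/+ replicate 2 (edgeR's quasi-likelihood test). Without *Ncr1* gfp/gfp replicates 2, 3, 4 or 5 the adjusted p was 0.0865, 0.0650, 0.0728 and 0.0768, respectively. Without *Ncr1* +/+ replicates 1, 3, 4 or 5 it was 0.0636, 0.0567, 0.1052 and 0.0587, respectively. The exact permutation test of *Kit* CPM gave p = 0.0159 to 0.0317 in these 10 comparisons. Without both libraries high in hepatocyte genes, the log2 fold change was -0.74 (adjusted p = 0.121 by edgeR's quasi-likelihood test).

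**Figure D1:**
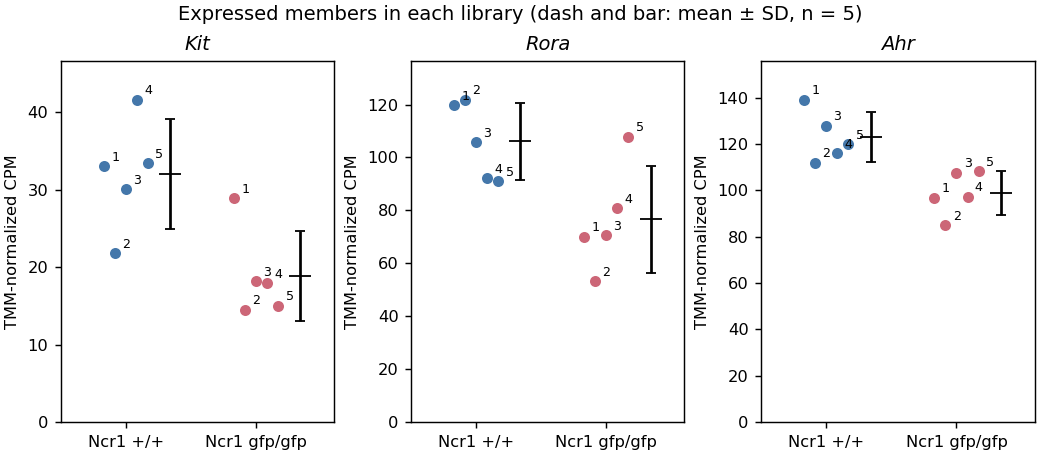
TMM-normalized CPM of *Kit*, *Rora* and *Ahr* in each library, with 1 numbered point per library by replicate and a dash with a bar for the mean ± SD (n = 5). The genotypes overlapped for *Kit* through *Ncr1* gfp/gfp replicate 1 (28.9 CPM) and for *Rora* through *Ncr1* gfp/gfp replicate 5 (107.9 CPM), and did not overlap for *Ahr*.

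Other cells with *Kit* were looked for with marker lists. Mast cell and basophil genes summed to 0.416 to 1.01 CPM in *Ncr1* gfp/gfp against 0.112 to 1.58 CPM in *Ncr1* +/+ libraries, none of the 12 passed the filter, and 7 had no count in any library, among them *Fcer1a*, *Ms4a2*, *Tpsab1* and *Mcpt4*. The 10 progenitor genes summed to 3.63 to 5.97 CPM in *Ncr1* gfp/gfp against 1.96 to 9.90 CPM in *Ncr1* +/+ libraries, most of it *Meis1*, and neither of the 2 tested had an adjusted p under 0.05. The sum does not describe its less abundant genes, which went both ways and were named after their values were seen. *Cd34* had 2 counts over the *Ncr1* gfp/gfp and 24 counts over the *Ncr1* +/+ libraries. In the same order *Hoxa9* had 2 and 28 counts, the latter in 1 library, and *Procr* had 16 and 2 counts. Some T cell and NK cell markers did move with the genotype. Of 10 T cell markers tested, 7 had a positive and 3 a negative log2 fold change. With an adjusted p under 0.05, *Cd3e*, *Cd3g* and *Cd8a* rose and *Cd28* fell in *Ncr1* gfp/gfp ILC1s. The sum of the list was 1585 to 1804 CPM against 1323 to 1556 CPM in *Ncr1* +/+ libraries, most of it *Cd3g* (means of 687 and 501 CPM) and *Lck* (691 and 693 CPM). Without *Cd3g* and *Lck* the sum was 251 to 354 CPM against 258 to 304 CPM, so it overlapped between the genotypes. Most of this remainder was *Bcl11b* (means of 133 and 134 CPM) and *Cd247* (89.3 and 77.3 CPM), neither with an adjusted p under 0.05. The overlap therefore does not describe the less abundant genes of the list. The T cell markers under the filter, named after their values were seen, went both ways. *Cd8b1* had 1 count over the *Ncr1* gfp/gfp and 28 counts over the *Ncr1* +/+ libraries, the opposite order to *Cd8a*. *Cd5* had 78 and 12 counts and *Cd6* had 37 and 2 counts, with *Ncr1* gfp/gfp first. *Cd3d*, also named after its values were seen, averaged 13.6 CPM against 6.62 CPM (log2 fold change 1.04, adjusted p = 0.0527 by edgeR's quasi-likelihood test). *Cd3e*, part of the T cell receptor complex, was at 9.05 to 38.8 CPM against 2.80 to 6.85 CPM. Of 12 NK cell markers tested, 9 had a positive and 3 a negative log2 fold change. With an adjusted p under 0.05, *Itgam* and *Klra7* rose and none fell. The list summed to 629 to 710 CPM against 588 to 652 CPM. Of the T cell and NK cell markers, 6 had an adjusted p under 0.05. Without both libraries high in hepatocyte genes, 5 of these 6 kept it and *Cd28* did not (adjusted p = 0.125 by edgeR's quasi-likelihood test). The log2 fold change of *Cd8a* went from 1.53 to 0.91. No gene of the T cell list found in the table was at 0 in all libraries, and 1 of the NK cell list, *Klra4*, was. The part of these cells in the differences of *Kit*, *Ahr* and *Rora* was not tested, and in sorted bulk cells fewer cells with a transcript and less of it per cell cannot be told apart.

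*Kitl*, which encodes the KIT ligand, was at 0 in 9 libraries and at 0.159 CPM in *Ncr1* gfp/gfp replicate 3. Of 22 tested genes of KIT receptor signalling, 10 had a positive and 12 a negative log2 fold change, and *Kit* alone had an adjusted p under 0.05. The median log2 fold change of this list was -0.04. *Pik3cd* and *Pik3r1*, which encode subunits of phosphoinositide 3-kinase, were its most abundant genes by CPM. *Pik3cd* averaged 1156 CPM in *Ncr1* gfp/gfp against 1145 CPM in *Ncr1* +/+ ILC1s, and *Pik3r1* had 632 and 614 CPM.

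The 5 tested genes whose pattern over the 10 libraries lay nearest to that of *Kit* were *Cyth3*, *Ttn*, *Gjb2*, *Fzd6* and *Mfsd4b4*. The measure was the root mean square difference of log2 CPM after each gene was centred on its own mean. It was 0.197 for *Cyth3*, 0.216 for *Ttn*, 0.223 for *Gjb2*, 0.230 for *Fzd6* and 0.245 for *Mfsd4b4*, against a median of 0.537 over all genes tested. Likeness to *Kit* includes the genotype difference, so the log2 fold changes of these genes, from -0.94 for *Ttn* to -0.50 for *Mfsd4b4*, are a description.

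*Ahr* was the most abundant of the 9 genes per exon length (chromosome 12, 36182651 to 36219661, minus strand). Its CPM in *Ncr1* +/+ replicates 1 to 5 was 139.1, 111.9, 127.8, 116.1 and 119.8. In *Ncr1* gfp/gfp replicates 1 to 5 it was 96.9, 84.8, 107.6, 97.3 and 108.2. Every *Ncr1* gfp/gfp library lay below every *Ncr1* +/+ library, as was the case for 1.82% of all genes tested. *Ncr1* +/+ ILC1s averaged 123 ± 10.8 CPM (SD, n = 5) and *Ncr1* gfp/gfp ILC1s 99.0 ± 9.56 CPM (SD, n = 5). On the log2 scale the fold change was -0.31 ± 0.08 (standard error), with adjusted p = 0.0482 by edgeR's quasi-likelihood test, and the two-sided exact permutation test of CPM gave p = 0.00794, the smallest possible.

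The adjusted p of *Ahr* lay close to the threshold. With 1 library left out, its log2 fold change was between -0.35 and -0.26. The adjusted p was 0.0467 without *Ncr1* gfp/gfp replicate 3, 0.0392 without *Ncr1* gfp/gfp replicate 5 and 0.0363 without *Ncr1* +/+ replicate 2 (edgeR's quasi-likelihood test). It was 0.0823, 0.126 and 0.100 without *Ncr1* gfp/gfp replicates 1, 2 and 4, respectively. Without *Ncr1* +/+ replicates 1, 3, 4 and 5 it was 0.132, 0.123, 0.0676 and 0.0701, respectively. Without both libraries high in hepatocyte genes, the log2 fold change was -0.30 (adjusted p = 0.106 by edgeR's quasi-likelihood test).

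*Arnt*, whose product pairs with AHR on DNA, was at 129 ± 10.1 CPM in *Ncr1* gfp/gfp against 127 ± 8.42 CPM in *Ncr1* +/+ ILC1s (SD, n = 5) (log2 fold change 0.02, adjusted p = 0.947 by edgeR's quasi-likelihood test). Of 16 listed genes of the AHR pathway, 8 passed the filter on low counts, and *Ahr* alone had an adjusted p under 0.05. The median log2 fold change of the 8 was -0.06. Of the AHR target genes, which were named after their values were seen, *Tiparp* was at 22.2 CPM in *Ncr1* gfp/gfp against 22.4 CPM in *Ncr1* +/+ ILC1s (adjusted p = 0.986 by edgeR's quasi-likelihood test). *Cyp1a1*, a cytochrome P450 gene induced by AHR ligands, was at 0.168 CPM in 1 *Ncr1* +/+ library and at 0 in the other 9 libraries.

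*Rora* was the most spread of the 3 expressed genes among *Ncr1* gfp/gfp libraries in absolute CPM (chromosome 9, 68501593 to 69236053, plus strand). Its CPM in *Ncr1* +/+ replicates 1 to 5 was 119.8, 121.8, 105.6, 92.2 and 91.0. In *Ncr1* gfp/gfp replicates 1 to 5 it was 70.1, 53.2, 70.7, 80.8 and 107.9. Of the *Ncr1* gfp/gfp libraries, 4 lay below every *Ncr1* +/+ library, and replicate 5 lay above 3 of them. *Ncr1* +/+ ILC1s averaged 106 ± 14.6 CPM (SD, n = 5) and *Ncr1* gfp/gfp ILC1s 76.5 ± 20.1 CPM (SD, n = 5). On the log2 scale the fold change was -0.47 ± 0.13 (standard error), with adjusted p = 0.0859 by edgeR's quasi-likelihood test, and the two-sided exact permutation test of CPM gave p = 0.0397.

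*Rora* passed the threshold only without *Ncr1* gfp/gfp replicate 5, among the 10 fits with 1 library left out, with a log2 fold change of -0.63 (adjusted p = 0.0043 by edgeR's quasi-likelihood test). In the other 9 fits its log2 fold change was between -0.52 and -0.36, with adjusted p-values from 0.0681 to 0.192. The exact permutation test of *Rora* CPM stayed under 0.05 without *Ncr1* gfp/gfp replicate 5 (p = 0.0159) or without *Ncr1* +/+ replicates 4 or 5 (p = 0.0476 each). This exact test gave p = 0.0635 or 0.0794 without any of the other 7 libraries, which were *Ncr1* gfp/gfp replicates 1 to 4 and *Ncr1* +/+ replicates 1 to 3. Without both libraries high in hepatocyte genes, the log2 fold change of *Rora* was -0.40 (adjusted p = 0.291 by edgeR's quasi-likelihood test).

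**Figure D2:**
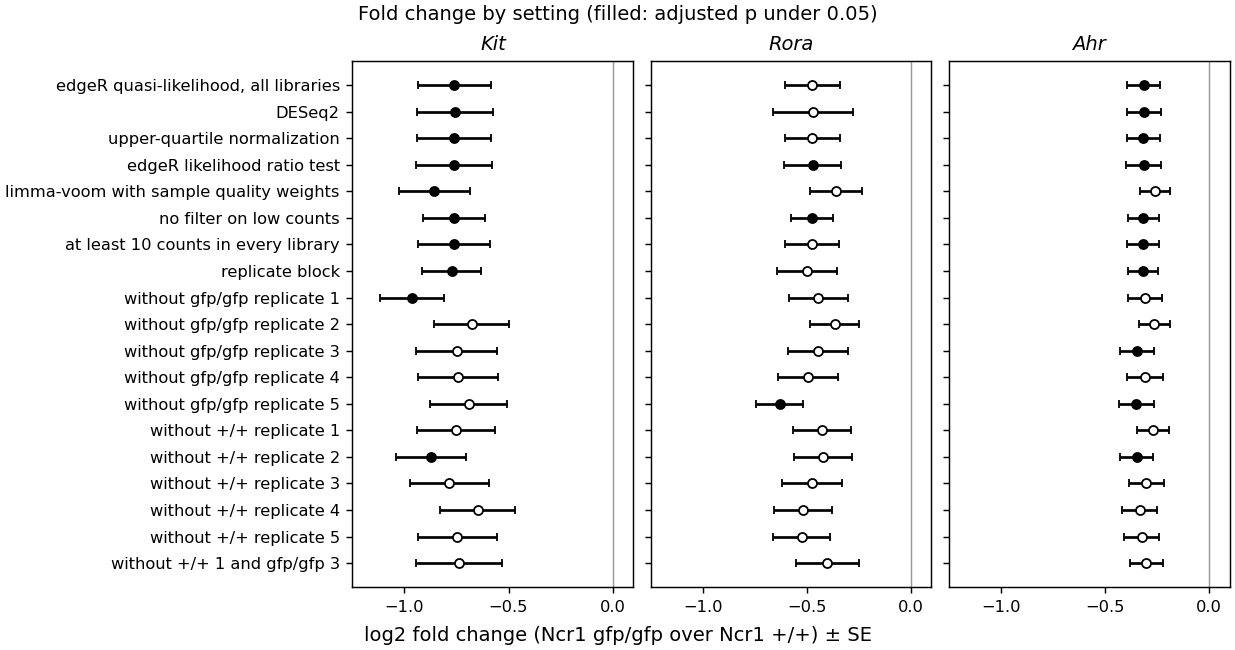
Log2 fold change ± standard error of *Kit*, *Rora* and *Ahr* in *Ncr1* gfp/gfp over *Ncr1* +/+ ILC1s, with 1 row per test, normalization, filter or set of libraries and filled points for an adjusted p under 0.05. All points are below 0, and with 1 library left out the filled points number 2 of 10 for *Kit*, 1 of 10 for *Rora* and 3 of 10 for *Ahr*.

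RORα and its relatives share DNA sites with the REV-ERB repressors of the circadian clock. Of 17 tested genes of this list, none had an adjusted p under 0.05, 7 had a positive and 10 a negative log2 fold change, and the median was -0.15. *Nr1d1*, which encodes REV-ERBα, was at 0.476 to 2.98 CPM in *Ncr1* gfp/gfp against 0.650 to 3.64 CPM in *Ncr1* +/+ libraries (log2 fold change -0.63, adjusted p = 0.760 by edgeR's quasi-likelihood test). *Bhlhe40*, the most abundant gene of the list by CPM, was at 382 and 397 CPM in *Ncr1* gfp/gfp and *Ncr1* +/+ ILC1s.

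Levels of different genes were compared as CPM per kb of exon. *Kit* was at 3.65 ± 1.13 CPM per kb in *Ncr1* gfp/gfp and 6.18 ± 1.38 CPM per kb in *Ncr1* +/+ ILC1s. *Rora* was at 6.21 ± 1.63 and 8.61 ± 1.19 CPM per kb, and *Ahr* was at 18.0 ± 1.74 and 22.4 ± 1.96 CPM per kb, in the same order. The order of the means was thus *Ahr*, *Rora* and *Kit* in both genotypes, and the ranges of mean ± SD of *Kit* and *Rora* overlapped within each genotype. By the mean level over the 10 libraries, 29.8% of all genes tested lay below *Kit*, 38.5% below *Rora* and 68.1% below *Ahr*. The ILC2 factor gene *Gata3* was at 49.1 ± 5.18 and 53.3 ± 2.94 CPM per kb in *Ncr1* gfp/gfp and *Ncr1* +/+ ILC1s, and its difference did not pass the test (log2 fold change -0.12, adjusted p = 0.571 by edgeR's quasi-likelihood test).

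*Zbtb16*, which encodes the factor PLZF of innate lymphoid precursors, averaged 32.5 ± 7.89 CPM in *Ncr1* gfp/gfp against 44.8 ± 4.15 CPM in *Ncr1* +/+ libraries (SD, n = 5) (log2 fold change -0.46, adjusted p = 0.0893 by edgeR's quasi-likelihood test).

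**Figure D3:**
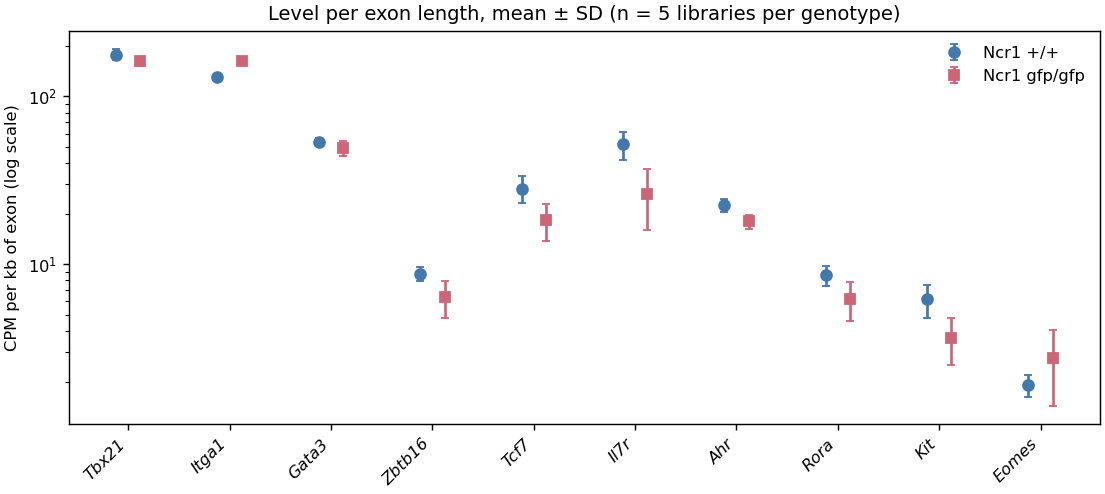
Mean ± SD (n = 5 libraries per genotype) of CPM per kb of exon, on a log scale, for *Kit*, *Rora* and *Ahr* beside genes that define ILC1s, NK cells, precursors and ILC2s. *Ahr* (18.0 and 22.4 CPM per kb in *Ncr1* gfp/gfp and *Ncr1* +/+) lies above *Rora* and *Kit*, and *Eomes* is the lowest gene shown.

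Both receptor genes, *Il23r* and *Il17rb*, had few counts in any library. *Il23r* (chromosome 6, 67372926 to 67441849, minus strand) had 0, 21, 10, 4 and 2 counts in *Ncr1* +/+ replicates 1 to 5. In the *Ncr1* gfp/gfp replicates the counts were 0, 1, 4, 0 and 0. More than 3 counts were reached in 3 *Ncr1* +/+ libraries and 1 *Ncr1* gfp/gfp library, and the groups overlapped (two-sided exact permutation test of CPM, p = 0.127). Without *Ncr1* +/+ replicate 1, which had no count, the exact permutation test gave p = 0.0476, and without any other 1 library it gave p = 0.0794 to 0.254. In a fit without the filter on low counts, the adjusted p of *Il23r* was 0.498 over 16610 genes (edgeR's quasi-likelihood test).

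*Il12rb1* encodes the chain that the IL-23 receptor shares with the IL-12 receptor, and it was well expressed. It averaged 191 CPM in *Ncr1* gfp/gfp against 201 CPM in *Ncr1* +/+ libraries (log2 fold change -0.07, adjusted p = 0.757 by edgeR's quasi-likelihood test). Of 9 tested genes of the IL-23 receptor pathway, *Socs3*, a feedback inhibitor of cytokine signalling, alone had an adjusted p under 0.05. *Socs3* fell from 23.5 to 33.6 CPM in *Ncr1* +/+ to 13.8 to 21.2 CPM in *Ncr1* gfp/gfp libraries (log2 fold change -0.76, adjusted p = 0.0040 by edgeR's quasi-likelihood test). The median log2 fold change of the 9 genes was -0.07.

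*Il17rb* (chromosome 14, 30809354 to 30822082, minus strand), which encodes the IL-25 receptor chain, had 7 counts in *Ncr1* +/+ replicate 4, 2 in *Ncr1* +/+ replicate 5 and 2 in *Ncr1* gfp/gfp replicate 3. The other 7 libraries had 0 counts, and the exact permutation test of CPM gave p = 0.444 (two-sided). Its partner chain gene *Il17ra* was at 132 to 143 CPM in *Ncr1* gfp/gfp against 141 to 160 CPM in *Ncr1* +/+ libraries (log2 fold change -0.10, adjusted p = 0.597 by edgeR's quasi-likelihood test). Of 9 tested genes of the IL-25 and IL-17 receptor pathway, *Nfkbiz*, which encodes the nuclear IκB protein IκBζ, alone had an adjusted p under 0.05. It fell from 110 to 162 CPM in *Ncr1* +/+ to 87.1 to 107 CPM in *Ncr1* gfp/gfp libraries (log2 fold change -0.47, adjusted p = 0.0039 by edgeR's quasi-likelihood test). The median log2 fold change of the 9 genes was 0.02.

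The 4 genes of secreted factors were not detected or barely detected. *Il22* (chromosome 10, 117642020 to 117647102, plus strand) and *Il5* (chromosome 11, 53534296 to 53538605, plus strand) had 0 counts in all 10 libraries, which allows up to 0.132 to 0.190 CPM, the value of 3 counts in a library. *Areg* (chromosome 5, 91568625 to 91577458, plus strand) had 2 counts in *Ncr1* +/+ replicate 1, 1 count in *Ncr1* +/+ replicate 3 and 0 in the other 8 libraries (two-sided exact permutation test of CPM, p = 0.444). At these depths no difference was detectable for these genes. These limits and counts cover counting error only, since the reads carried no molecular identifiers.

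*Il13* (chromosome 11, 53444825 to 53448204, minus strand) was the only one of the 9 genes with a higher mean in *Ncr1* gfp/gfp than in *Ncr1* +/+ ILC1s. In replicate order, the *Ncr1* gfp/gfp libraries had 0, 0, 3, 8 and 3 counts and the *Ncr1* +/+ libraries 1, 0, 0, 0 and 1. The groups overlapped through the libraries with 0 or 1 count, and the difference did not pass the test (two-sided exact permutation test of CPM, p = 0.167). In the fit without the filter on low counts its adjusted p was 0.557 (edgeR's quasi-likelihood test). *Il13* and *Il5* lie 86092 bases apart in the table, with *Rad50*, a DNA repair gene, between them, and *Il4* lies on the other side of *Il13*. *Rad50*, named after its values were seen, was at 75.2 to 110 CPM over the 10 libraries, while *Il4* had at most 0.297 CPM.

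**Figure D4:**
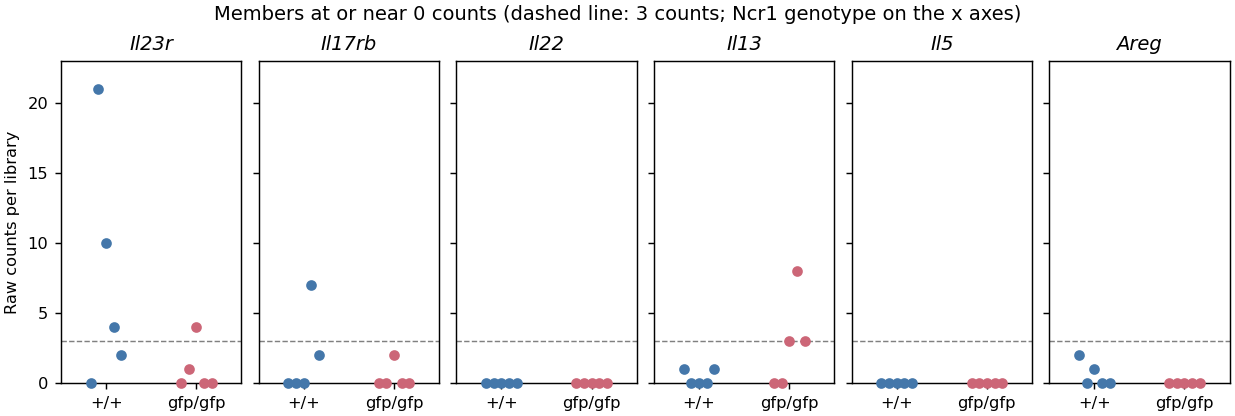
Raw counts of *Il23r*, *Il17rb*, *Il22*, *Il13*, *Il5* and *Areg* by *Ncr1* genotype, with 1 point per library and a dashed line at 3 counts. *Il22* and *Il5* have 0 counts in all 10 libraries, and *Il23r* reaches 21 counts in 1 *Ncr1* +/+ library.

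Of the receptors and processing enzymes around these factors, *Il10rb*, which encodes a chain of the IL-22 and IL-10 receptors, was at 156 to 206 CPM over the 10 libraries (log2 fold change -0.09, adjusted p = 0.666 by edgeR's quasi-likelihood test). None of the 7 tested genes of the IL-22 and IL-10 receptor list had an adjusted p under 0.05, and their median log2 fold change was -0.09. None of the 10 tested genes of the type 2 cytokine list had one either, with a median of -0.01. *Adam17*, the protease that releases amphiregulin from the cell surface, was at 113 to 130 CPM (log2 fold change 0.00, adjusted p = 0.997 by edgeR's quasi-likelihood test), and none of the 9 tested genes of the epidermal growth factor list had an adjusted p under 0.05 (median -0.06).

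Beyond *Kit* and *Ahr*, other genes of the ILC2, ILC3 and precursor lists were lower in *Ncr1* gfp/gfp ILC1s. Of 12 tested ILC3 genes, *Kit*, *Ahr*, *Maf* and *Gpr183* had an adjusted p under 0.05, all lower in *Ncr1* gfp/gfp, and the median log2 fold change was -0.39. *Maf*, a transcription factor gene, fell from 105 to 137 CPM in *Ncr1* +/+ to 82.5 to 95.0 CPM in *Ncr1* gfp/gfp libraries (log2 fold change -0.48, adjusted p = 0.0013 by edgeR's quasi-likelihood test). *Gpr183*, the gene of an oxysterol receptor that guides cell migration, fell from 7.89 to 16.4 CPM to 2.79 to 6.25 CPM (log2 fold change -1.45, adjusted p = 0.0020 by edgeR's quasi-likelihood test). Of the receptor and cytokine genes that define ILC3s, *Il23r* was below the filter, and *Il22*, *Il17a* and *Il17f* (the latter pair named after their values were seen) had 0 counts in all libraries.

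Of 19 tested precursor genes, 14 had a negative and 5 a positive log2 fold change, with a median of -0.21. Those with an adjusted p under 0.05 numbered 5, all lower in *Ncr1* gfp/gfp. They were *Kit*, *Tcf7*, *Ets1* and the cytokine receptor genes *Il7r* and *Il18r1*. *Tcf7*, which encodes the factor TCF-1, fell from 63.1 to 97.3 CPM in *Ncr1* +/+ to 35.0 to 64.6 CPM in *Ncr1* gfp/gfp libraries (log2 fold change -0.63, adjusted p = 0.0247 by edgeR's quasi-likelihood test). *Ets1*, another transcription factor gene, fell by 0.21 on that scale (adjusted p = 0.0225 by edgeR's quasi-likelihood test). *Il7r*, which is also an ILC1 marker, fell by 0.97 on the log2 scale, and *Il18r1* fell by 1.10. Of 15 tested ILC2 genes, *Il2ra* alone passed, with a log2 fold change of -1.24, and the median was -0.16.

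**Figure D5:**
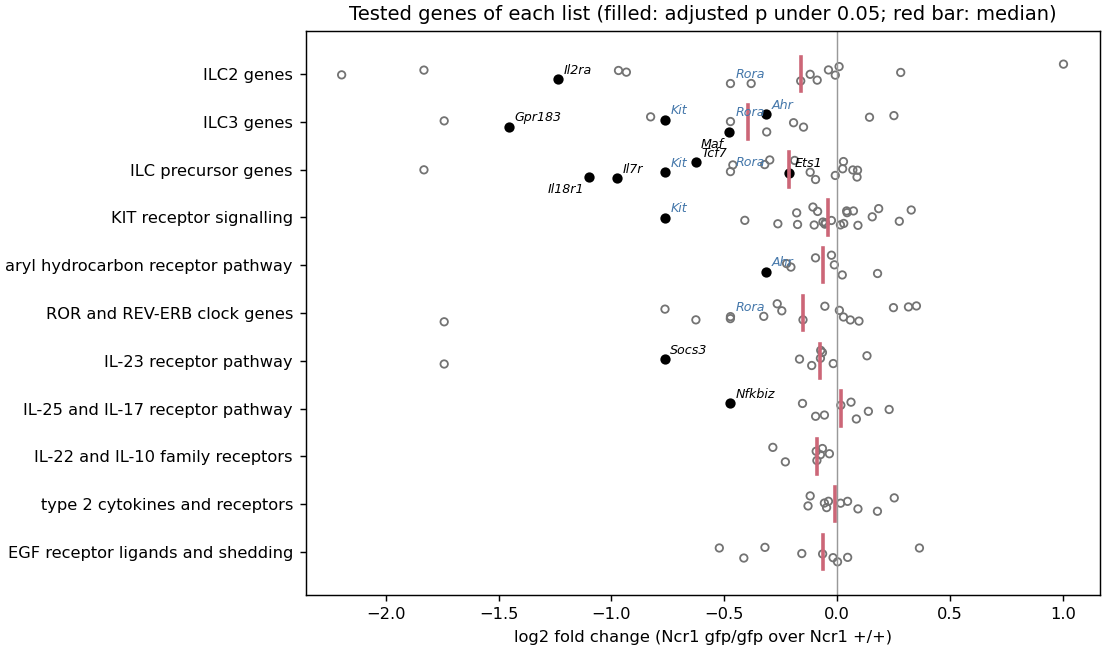
Log2 fold change (*Ncr1* gfp/gfp over *Ncr1* +/+) of the tested genes in each of 11 lists, with filled points for an adjusted p under 0.05, the red bar for the median of the list and blue labels for genes of the group described here. All filled points lie below 0, and the medians range from -0.39 for ILC3 genes to 0.02 for the IL-25 and IL-17 receptor pathway.

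Over the 11 lists, 121 of 186 genes were tested, 11 had an adjusted p under 0.05 with a lower level in *Ncr1* gfp/gfp, and 0 had one with a higher level, against 0.785% and 0.567% of all genes tested. The lists were chosen with earlier results of these data known. They hold *Il2ra*, *Il7r* and *Il18r1*, which the study had reported as lower from the same RNA sequencing. The comparison with all genes tested is therefore a description, not an independent test. Some genes stand in more than 1 list and count once. Without both libraries high in hepatocyte genes, all 11 were still lower and 6 had an adjusted p under 0.05, which were *Gpr183*, *Il18r1*, *Il2ra*, *Maf*, *Nfkbiz* and *Socs3*. The other 5 were *Kit* and *Ahr*, with the values given above, *Ets1* (adjusted p = 0.0742), *Il7r* (0.0550) and *Tcf7* (0.146, all by edgeR's quasi-likelihood test). Without the threshold on p, 49.3% of all genes tested had a negative log2 fold change.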

How the data were processed

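The deposited raw counts per gene were made by the authors, who trimmed the reads (Trimmomatic and FASTP), mapped them to mm10 with STAR and counted them with HTSeq. The libraries came from 2 ng of total RNA each (SMART-Seq v4, polyA RNA, single reads of 51 cycles). The gene positions are those of the count table, which names no build and differs from GRCm38.

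Genes kept by edgeR's filterByExpr (11463) entered edgeR's quasi-likelihood test on genotype after TMM normalization (edgeR 4.0.16, R 4.3.3), with Benjamini-Hochberg adjustment over all genes tested. A gene was called where its adjusted p was under 0.05 with more than a 1.5-fold rise or a ratio below 0.7. These limits are those in the methods of the study, whose results text names a log2 fold change above 1 instead. CPM of single genes were compared by a two-sided exact permutation test (scipy 1.17.1). Alternatives were limma-voom (limma 3.58.1), DESeq2 1.42.0, the likelihood ratio test of edgeR, upper-quartile normalization, other filters, a log2 scale with a pseudocount of 0.5 CPM, library totals in place of TMM, a replicate block and leaving out libraries. Replicates of a genotype differed by more than counting noise in all 20 pairs (chi-square per gene 9.18 to 24.0).

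The members and lists were chosen with earlier results of these data known. The genes named were the members, list genes with an adjusted p under 0.05, otherwise up to 2 abundant genes per list, a set of defining genes and markers, and the 5 genes nearest *Kit*. The marker lists not described above (B cell, macrophage, granulocyte, endothelial, stellate, cholangiocyte and erythroid genes) had no gene with an adjusted p under 0.05. In the dendritic cell list *Itgax* was higher, and in the ILC1 list *Itga1* and *Gzmc* were higher and *Il7r*, *Tmem176a*, *Tmem176b* and *Ncr1* lower in *Ncr1* gfp/gfp. The *Gzmc* value is RNA, whereas the study reported reduced GzmC protein in *Ncr1* gfp/gfp ILC1s by flow cytometry.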

Additional observations from a re-analysis of the deposited data

Results flagged for a closer look

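In 5 of 45 groups of 5 libraries, 1 library stood further from the rest than Dixon's 95% critical value allows, where 2.25 such groups are expected by chance. For *Kit*, *Ncr1* gfp/gfp replicate 1 had 28.89 CPM and the nearest library of its group 18.21 CPM. *Ncr1* gfp/gfp replicate 3 had the highest *Il23r* value of its group, 0.2118 CPM (4 counts), and the next was 0.04571 CPM. The same library had the only *Il17rb* counts of its group, at 0.1059 CPM (2 counts). With the rest of the group at 0, any count in 1 library would be flagged. The number expected by chance therefore does not hold for genes with so few counts. *Ncr1* gfp/gfp replicate 3 was also the library with the highest summed hepatocyte markers of its group, 96.51 CPM against 8.565 CPM in the next library. Of the *Ncr1* +/+ libraries, replicate 1 had 49.28 CPM of hepatocyte markers and the next library 7.167 CPM.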

How the results depend on the processing

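All settings kept the negative direction of *Kit*, *Rora* and *Ahr*. The number of genes called was 84, and it was 128 with DESeq2, 138 with edgeR's likelihood ratio test, 131 without the filter on low counts, 23 with an absolute log2 fold change above 1, 60 without both libraries high in hepatocyte markers, and 60 to 98 with 1 library left out. Of the 9 genes, 2 had an adjusted p under 0.05, 1 with limma-voom and sample weights, 0 without both libraries high in hepatocyte markers (an alternative chosen after seeing the data), and 0 to 2 with 1 library left out. Without these 2 libraries, *Kit* was at -0.74 (adjusted p = 0.121) and *Ahr* at -0.30 (adjusted p = 0.106), with fewer samples in the fit (edgeR). *Ahr* was at -0.26 with limma-voom (adjusted p = 0.0714), and the cause was not tested. *Rora* passed the threshold with edgeR's likelihood ratio test (-0.47, adjusted p = 0.0301) and without the filter (-0.47, adjusted p = 0.0040), the cause not tested, but not with DESeq2 (-0.47, adjusted p = 0.208). With 1 library left out, the log2 fold change was -0.96 to -0.65 for *Kit*, -0.63 to -0.36 for *Rora* and -0.35 to -0.26 for *Ahr*. The CPM difference ranged from -37.4 to -23.7 for *Rora* and, for *Il23r*, from -0.383 to -0.151.

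The libraries showed no pairing by replicate number, which does not exclude one. Same-numbered libraries had correlations of -0.017 to 0.044, and 2 of 10 libraries correlated best with their own number. With the replicate block, 87 genes were called, *Kit* was at -0.77 (adjusted p = 0.0090), *Rora* at -0.50 (adjusted p = 0.130) and *Ahr* at -0.31 (adjusted p = 0.0413). Depth limits the 6 genes under the filter, for which 3 counts stand for 0.132 to 0.190 CPM.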

Other observations

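Nearest genes were also found for *Rora* and *Ahr*, a step chosen after the data were seen. By the root mean square difference of centred log2 CPM over the 10 libraries, *Cpne7* (0.125), *Pvt1* (0.129) and *Lyst* (0.155) lay nearest to *Rora*, against a median of 0.411 over all genes tested. *Zhx2* (0.0630), *Ern1* (0.0678), *Unc45a* (0.0736), *Pqbp1* (0.0737) and *Ly9* (0.0798) lay nearest to *Ahr*, against a median of 0.273. None of the 5 nearest genes of *Kit* was among the 5 nearest of *Rora* or *Ahr*. Lists this short, drawn from all genes tested, would seldom share a gene, so no conclusion is drawn from this.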
